A study of Mus musculus with 3 samples.

Results

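Matricellular proteins are secreted into the extracellular matrix, where they change how cells attach, migrate and read growth factors without forming the structural scaffold themselves. Fibroblasts are a major source of them. They include the thrombospondins, the tenascins, periostin, SPARC and the CCN family, whose genes are common targets of the transcription cofactors YAP and TAZ and of serum-induced signalling. The members described here were 10 such genes out of 27537 gene labels on the array, chosen by name: the thrombospondin genes Thbs1 and Thbs2, Sparc, the tenascin C gene Tnc, the periostin gene Postn, and the CCN genes Cyr61 (Ccn1), Ctgf (Ccn2), Nov (Ccn3), Wisp1 (Ccn4) and Wisp2 (Ccn5). Every non-control probe carrying one of those gene names was taken, which gave 15 probes: 3 each for Thbs1 and Tnc, 2 for Sparc and 1 for each of the other 7 genes. One further probe was tied to Postn only through a synonym, was not well above background on any array and was not counted.

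The study asked about p53 in the making of induced pluripotent stem cells, and compared 3 mouse cell populations by 1-colour Agilent arrays of Cy3-labelled total RNA. One population was mouse embryonic fibroblasts (MEF) without p53, labelled p53-null MEF, another was embryonic stem (ES) cells, and the MEF they were set against are p53 wild type by the series design. All 3 carried the Nanog-GFP reporter, a green fluorescent protein that reports Nanog activity. Each group had 1 array, so no difference below has a replicate check or a p-value, and the labels used here do not say how many embryos or clones stood behind a sample.

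Each value below is the deposited processed signal of a probe divided by the 75th percentile of the non-control spots on its array, which was 1040 intensity units in p53-null MEF, 834 in ES cells and 829 in MEF. The technical error is that of the scanner software and came to about 0.20 on the log2 scale for a difference between 2 arrays. It does not include differences between cultures. A gene was counted as changed where the difference was at least 2-fold. Where a gene had several probes the brightest stood for it, and levels are compared between arrays and not between probes. All 10 standing probes, and 13 of the 15 probes, were well above background on all 3 arrays, and no non-control spot was saturated. The p53-null MEF array was on another slide and scan than the other 2 arrays, so slide and genotype cannot be told apart.

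The labels were set against genes that mark the cells. The brightest Trp53 probe, printed as 10 spots, read 56.3 ± 3.85 intensity units in p53-null MEF, 4902 ± 143 in ES cells and 1304 ± 29.8 in MEF (SD over spots of 1 array), a difference of -4.87 ± 0.22 (log2, technical error) for p53-null MEF minus MEF. The other Trp53 probe differed by -1.46. ES cells exceeded MEF by 2-fold or more for 9 of the 9 ES cell markers on the array, and lay below MEF by as much for 10 of 10 fibroblast markers. Summed over the 10 fibroblast markers, relative signal was 569 in p53-null MEF, 54.8 in ES cells and 768 in MEF, with 10, 9 and 10 of them well above background in the same order of groups.

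Some of the probes themselves show what was measured. The 4 probes below are those of the 15 whose position on mouse build mm8, as the scanner file of the p53-null MEF array gives it, covers more genome than their 60 bases, as for a probe that crosses a splice junction. The other 11 covered no more than their own length. Exon and UTR positions of the probes were not determined here. They are written 5′ to 3′ as printed on the array.
Thbs1, chr2:117812417-117812597, plus strand: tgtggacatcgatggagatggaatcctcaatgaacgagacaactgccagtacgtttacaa
Thbs2, chr17:14404116-14405379, minus strand: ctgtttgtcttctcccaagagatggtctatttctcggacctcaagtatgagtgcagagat
Sparc, chr11:55239370-55242027, minus strand: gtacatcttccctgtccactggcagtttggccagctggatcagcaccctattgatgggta
Tnc, chr4:63499575-63500338, minus strand: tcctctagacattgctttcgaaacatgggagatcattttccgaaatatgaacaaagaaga

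In p53-null MEF, 5 of the 10 genes were at least 2-fold lower than in MEF (Thbs1, Thbs2, Sparc, Nov and Wisp2) and none was at least 2-fold higher. Among all 17398 gene labels measured in that comparison 16.6% were at least 2-fold lower and 18.6% at least 2-fold higher. The median difference was -0.47 over the members and 0.03 over all gene labels. In ES cells all 10 genes were at least 2-fold lower than in MEF, where 27.1% of 18745 gene labels were lower and 32.7% higher. The median there was -5.82 over the members and 0.20 over all gene labels. These directions are relative to the 75th percentile of each array. Scaling to the spike-in control spots instead moved every p53-null MEF minus MEF difference up by 1.97, with the median of all genes at 1.999. Under that scaling Thbs1, Thbs2, Sparc and Nov had positive differences and Wisp2 stayed at -0.996. Both comparisons use the same MEF array. In extracts of whole cultures, fewer cells of a type and less RNA per cell cannot be told apart.

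**Figure D1:**
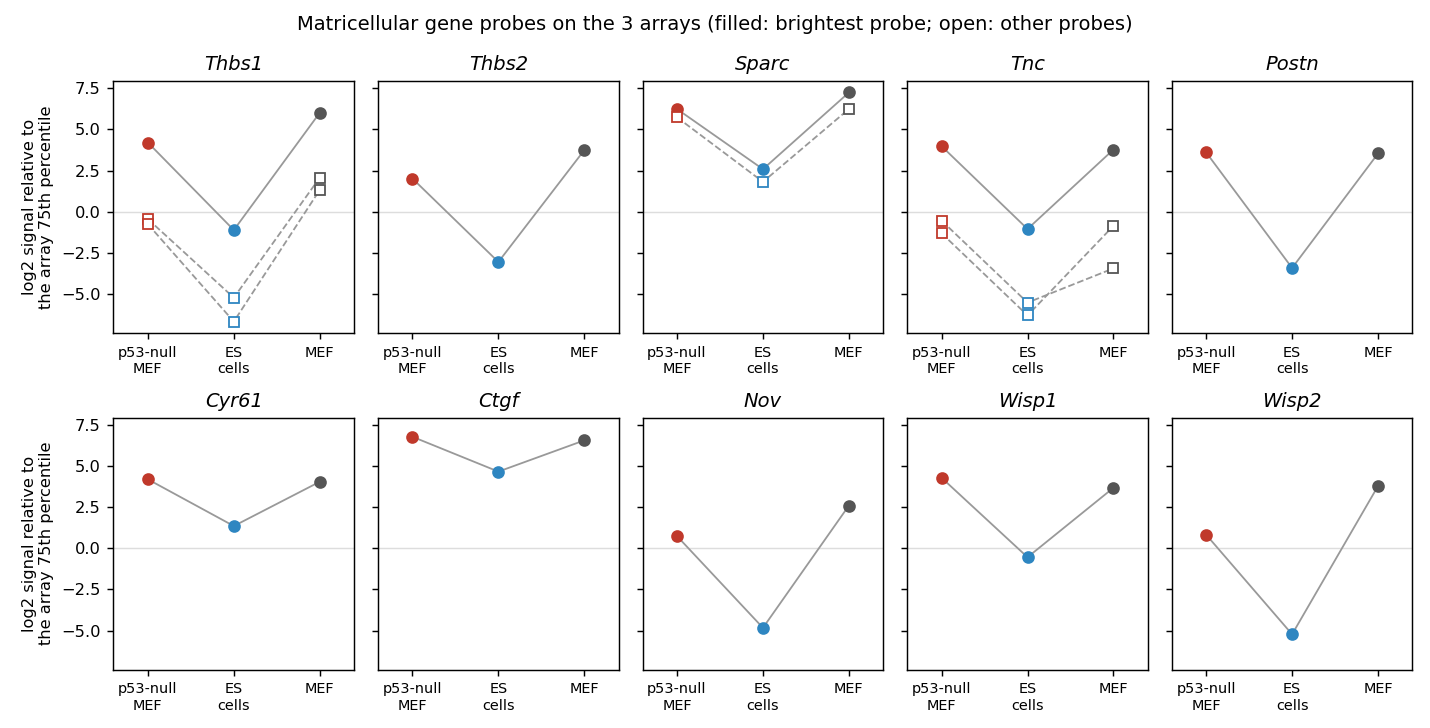
Signal of each matricellular gene probe on the 3 arrays, as log2 relative to the array's 75th percentile (vertical axis), in p53-null MEF, ES cells and MEF (horizontal axis); filled circles are the brightest probe of a gene, open squares its other probes, each point 1 array. All 10 standing probes are lowest in ES cells; Thbs1, Thbs2, Sparc, Nov and Wisp2 are lower in p53-null MEF than in the other fibroblasts on this scale, and 4 of these 5 turn with spike-in scaling.

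The thrombospondins are large secreted glycoproteins that bind CD47, integrins and matrix proteins, and Thbs1 is known as an activator of latent TGF-beta and an inhibitor of blood vessel growth. The brightest Thbs1 probe had a relative signal of 18.5 in p53-null MEF, 0.460 in ES cells and 64.8 in MEF, from deposited intensities of 19203, 384 and 53681. It was thus highest in MEF, 3.51-fold lower in p53-null MEF (-1.81 ± 0.20) and 141-fold lower in ES cells (-7.14 ± 0.20). Of all gene labels measured, 5.81% had a lower p53-null MEF minus MEF difference. The other Thbs1 probes ran the same way. A probe at chr2:117814035-117814094 read 0.732 in p53-null MEF, 0.0266 in ES cells and 4.20 in MEF, differences of -2.52 for p53-null MEF and -7.31 for ES cells. The junction-crossing Thbs1 probe printed above read 0.591 in p53-null MEF and 2.50 in MEF, a difference of -2.08, and was not well above background in ES cells. Set against a floor, the dimmest signal that the ES cell array called well above background, its ES cell level was at least 207-fold lower than in MEF.

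Thbs2 encodes the related thrombospondin 2, which also binds CD47 and restrains vessel growth. Its single probe read 4.05 in p53-null MEF, 0.120 in ES cells and 13.4 in MEF. It had the same order as Thbs1: 3.32-fold below MEF in p53-null MEF (-1.73 ± 0.20) and 112-fold lower in ES cells (-6.81 ± 0.21), where normexp correction gave -5.93.

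Sparc encodes osteonectin, a collagen- and calcium-binding glycoprotein made by fibroblasts, bone cells and parietal endoderm. The standing probe, printed above, read 75.8 in p53-null MEF, 5.996 in ES cells and 152 in MEF. ES cells were 25.4-fold lower than MEF (-4.67 ± 0.20). The p53-null MEF difference of -1.01 ± 0.20 (2.01-fold lower) sat on the 2-fold line, within the technical error of it. The second Sparc probe read 53.5 in p53-null MEF, 3.51 in ES cells and 75.9 in MEF, which was -0.51 for p53-null MEF and -4.43 for ES cells. Sparc fell short of 2-fold in p53-null MEF with normexp background correction (-0.89), median scaling (-0.96), no scaling (-0.68) and the mean of its probes (-0.76), so that 4 genes and not 5 were lower there.

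Tnc encodes tenascin C, a hexameric glycoprotein of embryonic and wounded tissue, and its 3 probes did not run together in the fibroblasts. The standing probe, at chr4:63446146-63446191, read 15.8 in p53-null MEF, 0.481 in ES cells and 13.7 in MEF. That left p53-null MEF and MEF within the technical error (0.20 ± 0.20) and ES cells 28.5-fold lower than MEF (-4.84 ± 0.20). The junction-crossing Tnc probe printed above read 0.402 in p53-null MEF and 0.551 in MEF (-0.45 ± 0.20), was not well above background in ES cells, and was at least 43.8-fold lower there, taken at its own signal, which lay above that floor. The third probe, at chr4:63471205-63471264 and named from a cDNA clone where the other 2 carry the RefSeq transcript, read 0.685 in p53-null MEF, 0.0216 in ES cells and 0.0915 in MEF. It alone of the 15 probes exceeded its MEF level by 2-fold or more in p53-null MEF (2.90 ± 0.21), on intensities of 712 and 75.9. In ES cells it was 4.24-fold lower than in MEF, at an intensity of 18.0. Which transcripts this probe detects was not determined here.

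Postn encodes periostin, a secreted integrin-binding protein of fibroblasts, periosteum and heart valves. Its probe read 12.2 in p53-null MEF, 0.0931 in ES cells and 11.6 in MEF. The 2 fibroblast arrays did not differ beyond the technical error (0.06 ± 0.20), and ES cells were 125-fold lower than MEF (-6.97 ± 0.21), or -6.17 with normexp correction.

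The CCN proteins share a modular build of insulin-like growth factor binding, von Willebrand factor C and thrombospondin repeat domains, with a cystine knot at the end that CCN5 lacks. The family divided in the fibroblasts: Nov and Wisp2 were lower in p53-null MEF, and Cyr61, Ctgf and Wisp1 were not 2-fold different on the 75th percentile scale. Under spike-in scaling the last 3 were more than 2-fold higher (2.12, 2.19 and 2.58) and Nov turned to 0.11. Over the 5 CCN genes the median p53-null MEF minus MEF difference was 0.15, and over the other 5 members -1.01. In ES cells the corresponding medians were -4.23 and -6.81.

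Cyr61 and Ctgf are early-response genes of growing fibroblasts and the standard readouts of YAP and TAZ activity. Cyr61 read 18.4 in p53-null MEF, 2.56 in ES cells and 16.6 in MEF. Ctgf read 111 in p53-null MEF, 25.5 in ES cells and 95.1 in MEF. Neither differed between the fibroblasts by more than about the technical error (0.15 ± 0.20 for Cyr61 and 0.22 ± 0.20 for Ctgf). They also had the smallest ES cell differences of the 10 genes, 6.47-fold lower than MEF for Cyr61 (-2.69 ± 0.20) and 3.74-fold lower for Ctgf (-1.90 ± 0.20). Ctgf remained at an intensity of 21220 in ES cells, far above the 10.1 at which signals on that array began to be called well above background.

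Nov encodes CCN3, a family member with growth-restraining roles in several cell types. It read 1.68 in p53-null MEF, 0.0351 in ES cells and 6.08 in MEF, from intensities of 1746, 29.2 and 5042. The p53-null MEF level was 3.63-fold below that of MEF (-1.86 ± 0.20), with 5.47% of gene labels lower still, and 174-fold lower in ES cells (-7.44 ± 0.23). Its ES cell signal is dim, and normexp correction gave -5.80 there.

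Wisp1 encodes CCN4, first described as a WNT1-induced secreted protein. It read 19.6 in p53-null MEF, 0.688 in ES cells and 12.9 in MEF. The p53-null MEF level was above that of MEF by 0.61 ± 0.20, beyond the technical error and under 2-fold, and ES cells were 18.7-fold lower than MEF (-4.23 ± 0.20).

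Wisp2 encodes CCN5, the member without the cystine knot domain, known for restraining growth of smooth muscle and breast cells. It read 1.78 in p53-null MEF, 0.0267 in ES cells and 13.9 in MEF, from intensities of 1852, 22.3 and 11517. Wisp2 had the largest difference of the 10 genes in both comparisons: 7.81-fold lower in p53-null MEF (-2.96 ± 0.20) and 521-fold lower in ES cells (-9.02 ± 0.27). Of all gene labels measured, 1.59% had a lower p53-null MEF difference and 0.096% a lower ES cell difference. Its ES cell signal lies close to background, and normexp correction, which raises dim signals, gave -6.93 in place of -9.02, beside -6.96 for Thbs1, so that Wisp2 no longer had the largest ES cell difference.

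**Figure D2:**
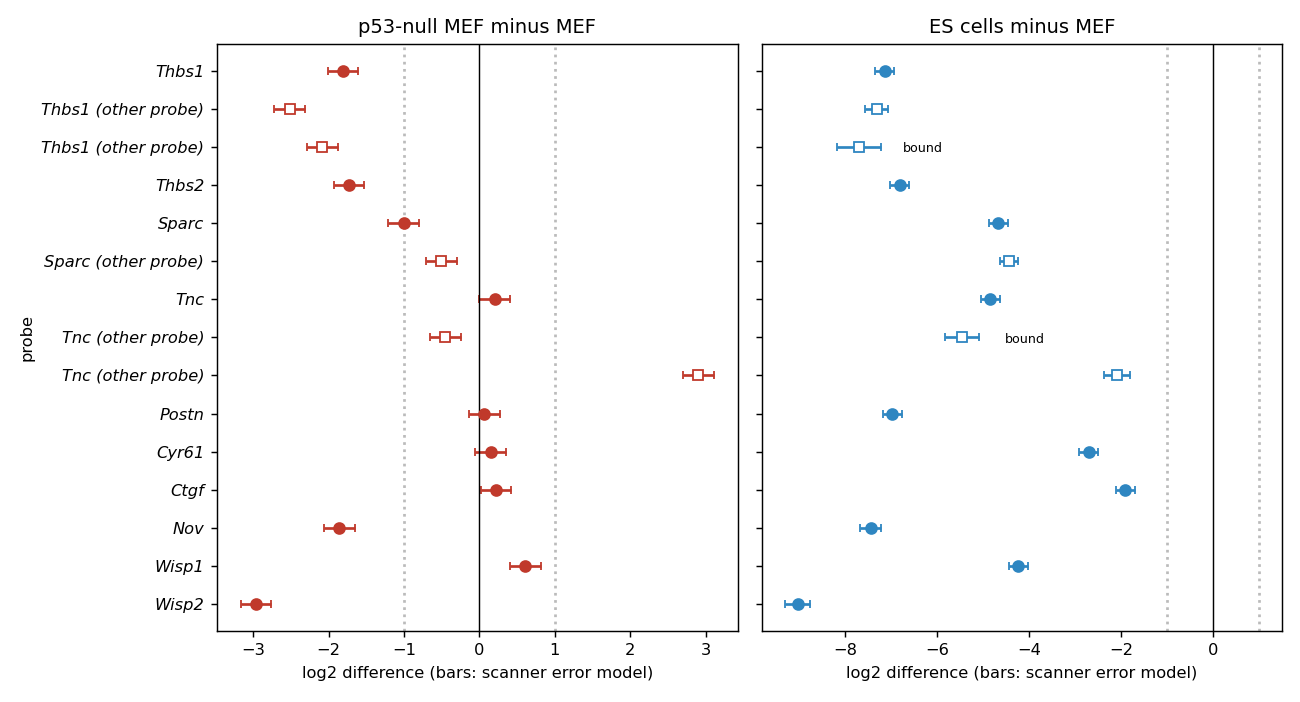
Log2 difference of each of the 15 probes for p53-null MEF minus MEF (left) and ES cells minus MEF (right), 1 array per group; bars are the scanner software's error model, dotted lines mark 2-fold, filled points are standing probes and "bound" marks a probe not well above background in ES cells. On the left the points run from -2.96 (Wisp2) to 2.90 (the third Tnc probe) and Sparc lies on the 2-fold line, all 1.97 higher with spike-in scaling; on the right every point is at or below -1.90.

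The order of the 3 cell populations took only 2 forms. Thbs1, Thbs2, Sparc, Nov and Wisp2 ran from MEF through p53-null MEF down to ES cells. Tnc, Postn, Cyr61, Ctgf and Wisp1 ran from p53-null MEF through MEF down to ES cells. The first 4 of that second group had p53-null MEF and MEF levels that lay about as close as the technical error, so their order is not settled by these arrays. The lower levels in p53-null MEF went with lower levels of other fibroblast genes: 5 of the 10 fibroblast markers were at least 2-fold lower there and none higher, with a median of -0.79. Their part in the result was not tested.

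**Figure D3:**
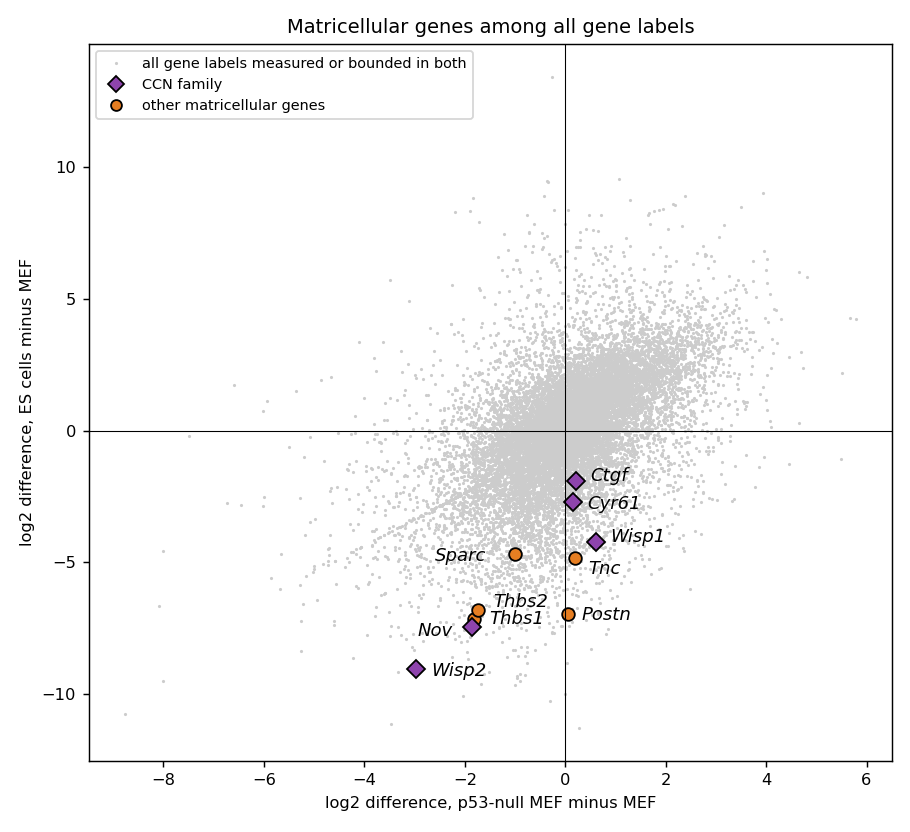
Log2 difference p53-null MEF minus MEF (horizontal) against ES cells minus MEF (vertical), both taken from the same MEF array; grey points are all gene labels with a value or bound in both, purple diamonds the CCN genes and orange circles the other members. All 10 members lie below 0 on the vertical axis, with Wisp2 at -2.96 and -9.02 and Ctgf at 0.22 and -1.90; with spike-in scaling every point moves right by 1.97 and up by 0.24.

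Markers of other cell types were summed on each array, and a sum is set against the same list on the other arrays only. Parietal endoderm markers summed to a relative signal of 33.6 in p53-null MEF, 4.46 in ES cells and 45.0 in MEF, carried by Lamb1, Plat, Col4a1, Krt19 and Dab2. The endoderm transcription factor genes differed among themselves. Gata6 was well above background on all 3 arrays, at 1.76 in p53-null MEF, 0.129 in ES cells and 1.85 in MEF. Gata4 and Sox17 were not well above background in either MEF array. Foxa2 and Sox7, both dim, went the other way from the sum, at 2.44 and 1.27 for p53-null MEF minus MEF. Smooth muscle markers summed to 540 in p53-null MEF, 14.8 in ES cells and 495 in MEF, nearly all from Acta2, Tagln and Cnn1. For p53-null MEF minus MEF only Cnn1 was higher (1.27), and the median of the list was -0.17. Acta2 (-0.17), Tagln (-0.16) and Smtn (-0.11) lay within the technical error, and Myh11 (-2.49) and Des (-1.33) were more than 2-fold lower. Macrophage markers summed to 0.630 in p53-null MEF, 0.793 in ES cells and 3.08 in MEF, and the MEF sum was mostly Lyz2, at 2.39. Endothelial markers came to 0.760 in p53-null MEF, 1.27 in ES cells and 0.664 in MEF. Most of the sum was Kdr in p53-null MEF (0.621) and Vwf in ES cells (0.764). For p53-null MEF minus MEF their median was -0.66, with Kdr higher (1.35) and Tek lower (-3.14). Bone and cartilage markers summed to 6.98, 4.998 and 11.8, and glial and neural markers to 4.55, 4.12 and 7.03, in the same order of groups. The MEF glial and neural sum was mostly S100b, at 4.42 against 0.530 in p53-null MEF. The neuronal genes Map2 and Tubb3 went the other way, at 1.18 and 0.44 for p53-null MEF minus MEF. In ES cells most of that sum was Tubb3, at 3.54. Of the 8 bone and cartilage markers 5 were lower by 2-fold or more in p53-null MEF than in MEF and 1 was higher. Their median was -1.42, beside the lower Thbs1, Thbs2, Sparc, Nov and Wisp2. Of the 5, Bglap, Sp7, Alpl and Ibsp were dim in p53-null MEF, at intensities of 36.0, 20.3, 33.5 and 3.22. Acan, itself dim, went the other way at 2.05, and Runx2 was at 0.77. The part of any of these cells in the members' differences was not tested.

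Further matricellular genes were read from a list of 19 on the array. Over all gene labels, the shares to set beside the list counts below were 16.6% lower and 18.6% higher in p53-null MEF. In ES cells they were 27.1% lower and 32.7% higher. In p53-null MEF 7 of 17 measured were at least 2-fold lower than in MEF and 2 higher, with a median of -0.08. The cartilage thrombospondin gene Comp was 18.0-fold lower (-4.17), Tnxb, a tenascin gene of loose connective tissue, was at least 17.0-fold lower, and Thbs4 was lower on both of its probes (-3.21 and -4.08). Of the 2 higher genes, Spock3 was at least 7.35-fold higher, as it was not well above background in MEF. Mdk, the gene of the growth factor midkine, was higher by 1.03 on its brightest probe and by 0.66 on the other. In ES cells 13 of 16 measured were lower than in MEF and 2 higher, with a median of -4.52, which was -3.03 with normexp correction. The matrix Gla protein gene Mgp was 1014-fold lower and the insulin-like growth factor binding gene Igfbp7 69.5-fold lower, while Mdk was higher by 2.24 and the testican gene Spock2 by 1.86.

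Receptors of these proteins were read from a further list. Of 15 receptor genes measured in p53-null MEF, 3 were at least 2-fold lower than in MEF, 2 higher and 10 neither, with a median of -0.41. Both counts were near the shares over all gene labels. Sdc4, encoding the heparan sulfate proteoglycan syndecan 4, read -1.40 and Cacna2d1, a channel subunit that binds thrombospondins, read 1.55. The integrin gene Itgb3 read 1.69 on its brightest probe and 0.22 on the other. The endocytic receptor gene Lrp1 read -1.54 on its brightest probe and 0.999 on the other, so its direction depended on the probe. In ES cells 11 of 17 were lower than in MEF and 1 higher, with a median of -2.32. Cd47, the cell surface receptor of thrombospondins, was 38.1-fold lower there and read -0.26 in p53-null MEF.

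Of the Hippo pathway genes, whose kinases restrain YAP and TAZ, 1 of 21 was lower by 2-fold or more in p53-null MEF and 4 were higher, with a median of 0.29. The count of higher genes was near the share over all gene labels (18.6%). The kinase gene Taok1 was higher by 2.77 on its brightest probe and by 1.08 to 1.28 on its others. Yap1 and Wwtr1, which encode YAP and TAZ and are named here after their values were seen, read 0.46 and 0.29. In ES cells 9 of 21 were lower than in MEF and 5 higher, with a median of -0.61. Lats2, encoding a kinase that phosphorylates YAP, was 22.1-fold lower, and Yap1 read -1.08 and Wwtr1 -1.72.

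Among 20 other target genes of YAP and TAZ, 3 were lower by 2-fold or more in p53-null MEF and 1 was higher, with a median of -0.32. The count of lower genes was near the share over all gene labels (16.6%). Igfbp3, which is also a known p53 target, was 14.4-fold lower (-3.85, and -3.93 to -1.42 on its other probes), the tissue factor gene F3 read -1.61 and Amotl2 -1.30. In ES cells 17 of the 20 were lower than in MEF and 1 higher, with a median of -2.73, among them Ccdc80 at 626-fold lower. A list of 18 genes held those of serum response factor and its MRTF cofactors (Srf, Mkl1 and Mkl2) together with their targets. None of the 18 was lower and 2 were higher in p53-null MEF, Cnn1 (calponin, 1.27) and Fos (1.12). The median was -0.07, or 0.03 with normexp correction. In ES cells 15 of the 18 were lower and none higher, with a median of -3.14, and the smooth muscle actin gene Acta2 was 92.1-fold lower. With spike-in scaling the 5 list medians for p53-null MEF were all positive.

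**Figure D4:**
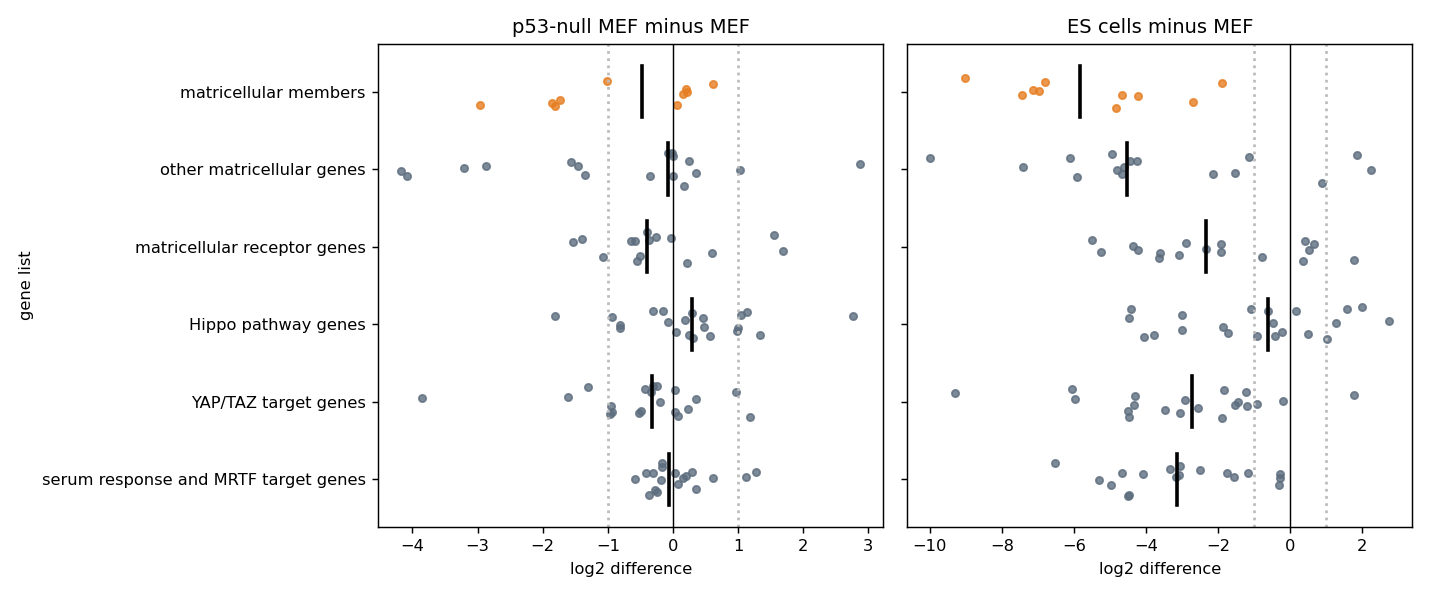
Log2 difference of each measured gene in the members and in 5 lists of related genes, for p53-null MEF minus MEF (left) and ES cells minus MEF (right); points are genes on 1 array per group, jittered within their row, black bars are medians and dotted lines mark 2-fold. Medians run from -0.47 (members) to 0.29 (Hippo pathway) on the left, all positive with spike-in scaling, and from -5.82 (members) to -0.61 (Hippo pathway) on the right.

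Genes with the most similar pattern were sought among 12356 RefSeq-matched gene labels by the distance between their 2 differences, which rest on 3 arrays. For Thbs1 they were Ifit3 at a distance of 0.047 and Lama4 at 0.13, and for Thbs2 Nnmt at 0.15 and Ctsh at 0.20. Vopp1 (0.074) and Ano1 (0.11) lay nearest to Sparc, and Bicc1 (0.081) and Tox (0.098) to Tnc. Postn had Fat4 (0.12) and Ptx3 (0.23), Cyr61 had Irx2 (0.043) and Acat1 (0.055), and Ctgf had Mgat4b (0.040) and Ctps2 (0.051). Wisp1 lay nearest to Zic1 (0.025) and Samd5 (0.075). The gene nearest to Nov was another member, Thbs1, at 0.31. Wisp2 had no close neighbour, with S100b at 0.81 and H19 at 0.83.

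The protein-coding genes next to the members in RefSeq order were looked up after the values were seen. Nov lies between Mal2 and Enpp2, which differed by 0.13 and 1.32 for p53-null MEF minus MEF and by 0.13 and -0.48 for ES cells minus MEF. Ada, beside Wisp2, differed by 1.69 in p53-null MEF and -0.11 in ES cells, and Atox1, beside Sparc, by -0.20 and 0.12. Other neighbours were low in ES cells as well: Smoc2 beside Thbs2 was -0.08 in p53-null MEF and at least 170-fold lower in ES cells than in MEF, and Enpp1 beside Ctgf was 0.67 in p53-null MEF and -6.35 in ES cells.

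The RefSeq promoter table on GRCm38.p6 held 7 windows for 5 members, Thbs2, Sparc, Tnc, Postn and Cyr61. The 250 bases before each start site were searched on both strands for the TEAD motif GGAATG, the AP-1 motif TGANTCA, the TATA box letters TATAAA, the SP1 motif GGGCGG, the CArG box of serum response factor and the p53 half-site. Cyr61 is shown because YAP and TAZ act through TEAD factors, and Sparc because it held the only p53 half-site match among the 7 windows. Capitals mark the matches.
Cyr61 (Ccn1), chr3:145649986-145650235, minus strand: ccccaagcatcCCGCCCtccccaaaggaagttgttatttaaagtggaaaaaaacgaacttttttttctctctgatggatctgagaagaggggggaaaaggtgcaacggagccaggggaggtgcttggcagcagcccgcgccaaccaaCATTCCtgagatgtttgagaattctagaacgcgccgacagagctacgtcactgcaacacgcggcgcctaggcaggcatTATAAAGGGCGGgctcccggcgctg
Sparc, chr11:55420081-55420330, minus strand: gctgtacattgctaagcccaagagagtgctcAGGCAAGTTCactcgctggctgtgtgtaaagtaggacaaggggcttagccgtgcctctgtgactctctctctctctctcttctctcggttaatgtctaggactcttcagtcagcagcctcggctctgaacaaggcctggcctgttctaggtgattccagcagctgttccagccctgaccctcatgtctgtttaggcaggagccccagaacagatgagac

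In Cyr61, whose level did not differ between the fibroblast arrays beyond the technical error, the TEAD motif matched on the minus strand (CATTCC) at -103, TATAAA at -25, and GGGCGG at -239 on the minus strand and at -19, directly after TATAAA. No other member window held GGAATG. In Sparc the p53 half-site match lay at -219 and no other motif searched was found. TATAAA was also found in Thbs2 at -126 on the minus strand and in 1 of the 2 Postn windows at -26. Both Tnc windows held TATAAA, at -126 and -205, and GGGCGG, at -167 and -246. The 2 Tnc windows overlap, so their matches are the same TATAAA and the same GGGCGG, numbered from 2 start sites. No window held the AP-1 motif or the CArG box. Of all 32851 promoter windows in the table, 12.6% held GGAATG, 6.75% TGANTCA, 12.4% TATAAA, 32.7% GGGCGG, 1.47% the CArG box and 7.13% the p53 half-site. The matches describe letters in these windows only.

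**Figure D5:**
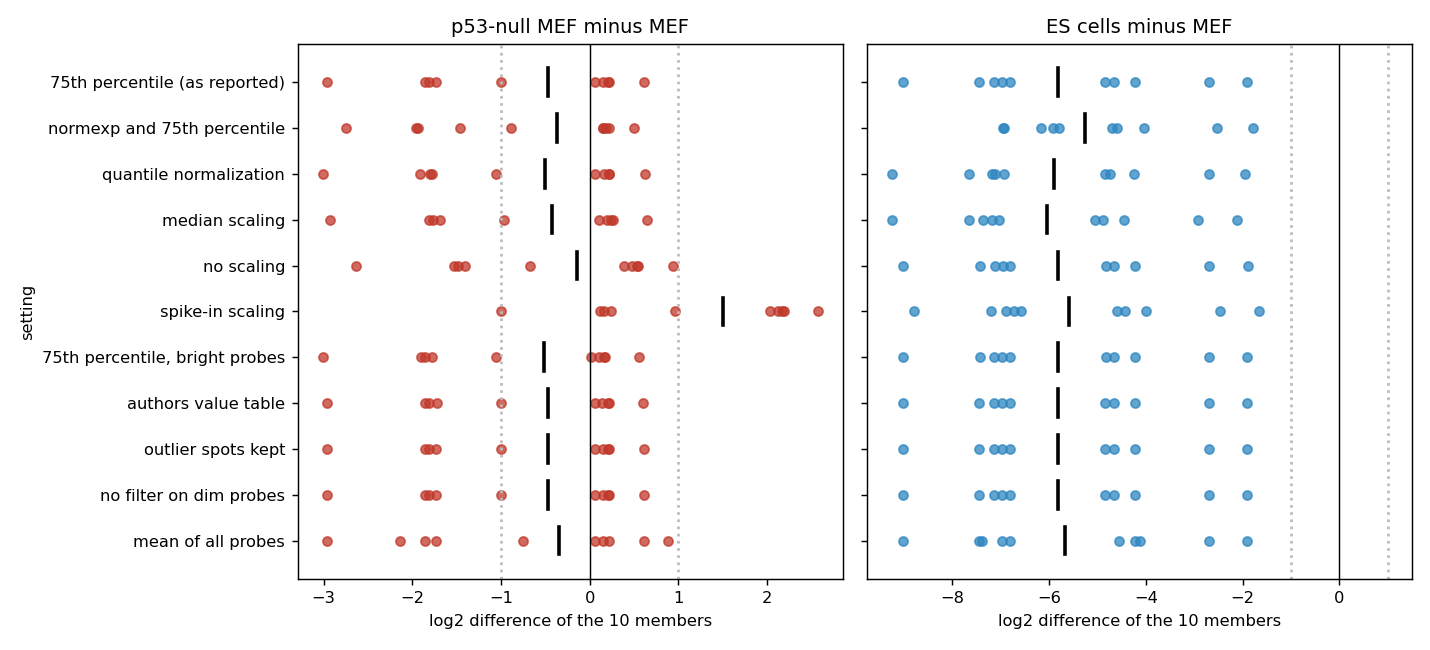
Log2 differences of the 10 members (points) and their median (black bars) under the reported scaling and 10 alternatives, for p53-null MEF minus MEF (left) and ES cells minus MEF (right), 1 array per group; dotted lines mark 2-fold. The left medians lie at or below -0.14 under every setting but spike-in scaling (1.497), and all right medians lie between -6.04 and -5.25.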

How the data were processed

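Total RNA of 3 samples, 1 array each, was labelled with Cy3 and scanned. The deposited intensity values are background-subtracted processed signals, written by version 9.5.3.1 of Agilent Feature Extraction per the file headers. The deposited value table held the same intensities (ratio 0.995 to 1.005), unlogged and uncentred, with medians of 51.8 in p53-null MEF, 50 in ES cells and 43.2 in MEF.

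Here, control spots and spots marked as outliers were left out (62 in p53-null MEF, 176 in ES cells and 192 in MEF, of 43379 non-control spots). Signals were divided by the 75th percentile of the array and log2 transformed, and spots of a probe were averaged. A probe counted as well above background if 50% or more of the spots kept for it did. A probe below background in 1 group was given as a bound against the higher of its own signal and the lowest signal well above background, which was 16.0 intensity units in p53-null MEF, 10.1 in ES cells and 12.4 in MEF. Probes printed as 10 spots had a median coefficient of variation of 3.62% in p53-null MEF, 3.49% in ES cells and 4.16% in MEF. Of 41174 probes, 41050 were measured, under 27537 gene labels, of which 19724 matched RefSeq.

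With 1 array per group there was no test, and the number of arrays limits the precision. The comparisons were p53-null MEF minus MEF and ES cells minus MEF. The members and gene lists were chosen with earlier results of these data known. All 15 member probes are reported. From each list, genes were named among up to 3 with the largest difference in each direction per comparison, and for each member the 2 labels nearest in pattern. Alternatives were normexp correction with offset 50 (limma 3.58.1 in R 4.3.3), quantile, median, spike-in, bright-probe or no scaling, the deposited value table, no outlier removal, no filter on dim probes, and the mean of all probes of a gene. Calculations used Python 3.11.15 with pandas 2.3.3 and numpy 2.4.6, and the differences and bounds were tested on simulated data.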

Additional observations from a re-analysis of the deposited data

How the results depend on the processing

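Over 10 alternatives, all 10 members stayed at least 2-fold lower in ES cells than in MEF. Their median (-5.82) was -5.25 with normexp correction, -6.04 with median scaling and -5.58 with spike-in scaling. Normexp made the dimmest ES cell differences smaller: Wisp2 -6.93, Nov -5.80, Thbs2 -5.93 and Postn -6.17. For p53-null MEF minus MEF the median (-0.47) was -0.14 without scaling and 1.497 with spike-in scaling, and spike-in scaling left 0 members at least 2-fold lower and 5 higher. It reversed Thbs1 (0.16), Thbs2 (0.24), Sparc (0.96) and Nov (0.11). It moves all genes together, to a median of 1.999. Against that median Wisp2 stood at -2.99, Nov at -1.89, Thbs1 at -1.84, Thbs2 at -1.76 and Sparc at -1.04. These distances are the same under both scalings by arithmetic, since 1 constant per array moves members and median alike. They are therefore no check on the members. The cause of the shift between spike-in and gene signals was not tested. Trp53 (-4.87) was -3.81 with normexp, -4.54 without scaling, -2.90 with spike-in scaling and -3.16 as the mean of its probes. The mean of probes raised Tnc to 0.88 in p53-null MEF and gave -4.12 in ES cells. No other single-gene difference of 2-fold or more, among those recomputed, changed sign. With 1 array per group no replicate could be left out. No paired analysis was possible because each group has 1 sample. Signals near background limit the size of the ES cell differences, and the error of 0.20 covers the array only.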
